A study of Homo sapiens with 12 samples.

Results

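Genes of oxidative stress, growth arrest and cell death were followed in palatal mesenchymal cells that had received MSX1 or a mutant of it. The set holds HMOX1, OSGIN1, GADD45B and BIK, taken by symbol from a deposited table of 666 genes, and all 4 were present and passed the filter on low values that left 533 genes for testing. RNA was sequenced from 12 libraries, 3 from cells transfected with each of 4 plasmids, and the labels give a time of 8 h. The K139Q group received MSX1 with glutamine in place of a lysine, a change that mimics acetylation. The K139R group received MSX1 with arginine at that lysine, a change that mimics the deacetylated state, the MSX1 group received the unmutated protein, and the Vector group received the empty plasmid. According to the paper's methods, the MSX1 plasmids carried a GFP tag. All 4 groups, Vector included, had gone through transfection, and the cells also carried their own MSX1 gene. The labels name the cells as HEPM, a human embryonic palatal mesenchymal line, and every gene identifier is human, whereas the paper names mouse cells. The library names of both mutant groups carry a different substitution from their titles, and the titles were followed here.

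MSX1 is a homeodomain transcription factor of the palate and other craniofacial tissues, where it mostly acts as a repressor. Cells answer oxidants through the transcription factor NRF2, which is held in the cytoplasm by KEAP1 and, once released, binds antioxidant response elements near genes such as HMOX1 and OSGIN1. HMOX1 degrades heme to biliverdin, iron and carbon monoxide. OSGIN1, oxidative stress induced growth inhibitor 1, slows growth and can promote cell death. GADD45B belongs to a family of small stress proteins that bind cell cycle and MAP kinase regulators. BIK is a BH3-only member of the BCL2 family that resides in the endoplasmic reticulum and promotes apoptosis.

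The deposited table lists genes that the authors had picked for their difference between the MSX1 and Vector libraries, with every gene centered at 0 and brought to unit SD over the 12 libraries. The expression values behind the scaling were recovered in steps of 0.01. Their unit is not given in the sources used here, and neither is the depth each library reached, since the paper's methods state only a target, so no counting error could be attached to a value. Differences between groups were tested with limma on log2(expression value + 1) over the 533 genes, and a gene was called at a Benjamini-Hochberg adjusted p below 0.05. Because of the authors' choice of genes, each p of MSX1 against Vector is a description and not independent evidence. The contrasts of both mutants with Vector share the Vector libraries with that choice. Among these genes, 361 were called higher and 118 lower in MSX1 than in Vector, 320 and 29 in K139R than in Vector, and 341 and 50 in K139Q than in Vector. After quantile normalization the numbers were 183 and 147 in MSX1, 85 and 98 in K139R, and 114 and 117 in K139Q. That step gives every library the same distribution, although the table was selected on MSX1 against Vector and most tested genes were called higher. A call lost under it cannot be told apart from an effect of the step on such a table. COL1A1 and S100A4, the 2 of 20 mesenchymal markers in the table, were at 9.21 and 6.76 in K139Q, 7.21 and 3.80 in K139R, 10.6 and 8.95 in MSX1, and 4.31 and 2.34 in Vector. The other 18 markers were not analyzed here. In bulk RNA, fewer cells of a type and less RNA per cell cannot be told apart.

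The plasmid itself was read first. MSX1 (ENSG00000163132) had expression values of 8560, 13893 and 8006 in the K139Q libraries, 13561, 7211 and 5812 in the K139R libraries, 6554, 4672 and 6959 in the MSX1 libraries, and 20.3, 17.2 and 18.7 in the Vector libraries. All 9 libraries with an MSX1 plasmid lay far above the Vector libraries. The log2 differences from Vector were 8.97 in K139Q, 8.72 in K139R and 8.25 in MSX1 (SE 0.29 each, limma). MSX1 itself was not called between any of the 3 plasmids, with adjusted p of 0.28 for K139Q against MSX1, 0.32 for K139R against MSX1 and 0.75 for K139Q against K139R (limma). The K139R libraries ran over a wide range, and replicate 1 of that group had the highest and replicate 3 the lowest value of MSX1 and of all 4 genes in the set.

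HMOX1 (ENSG00000100292), the inducible heme oxygenase, was higher with every MSX1 plasmid. Its expression values were 122.88, 140.54 and 111.84 in K139Q, 137.04, 103.51 and 97.39 in K139R, 105.96, 84.32 and 101.88 in MSX1, and 35.21, 20.84 and 26.81 in Vector. The lowest library with an MSX1 plasmid, at 84.32, stood well above the highest Vector library. Of the 533 tested genes, 397 in K139Q, 358 in K139R and 485 in MSX1 also did not overlap with Vector. The group means were 125 ± 14.5 in K139Q, 113 ± 21.3 in K139R, 97.4 ± 11.5 in MSX1 and 27.6 ± 7.22 in Vector (SD, n = 3 each).

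Relative to Vector, HMOX1 rose 4.53-fold in K139Q by the ratio of means, with a log2 difference of 2.16 (SE 0.21, adjusted p = 3.6e-06 from limma). In K139R it rose 4.08-fold, with a log2 difference of 2.0 (SE 0.21, adjusted p = 1e-05 from limma). In MSX1 the ratio was 3.53, with a log2 difference of 1.81 (SE 0.21, adjusted p = 2.5e-05 from limma). The exact permutation test of each of these contrasts gave 0.1, the smallest p that 3 libraries against 3 allow. Ordered by size from the highest of 533 log2 differences, HMOX1 stood 13th in K139Q, 10th in K139R and 19th in MSX1. Its p and rank in MSX1 are a description only, since the table was selected on that contrast.

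OSGIN1 (ENSG00000140961) gave low expression values in every group. Its libraries read 2.28, 4.25 and 3.21 in K139Q, 3.60, 2.26 and 1.27 in K139R, 3.90, 3.41 and 2.87 in MSX1, and 1.57, 0.89 and 1.10 in Vector. All K139Q and MSX1 libraries were above all Vector libraries, whereas K139R replicate 3, at 1.27, lay below the highest Vector library. Such a lack of overlap with Vector was seen for 397 of 533 tested genes in K139Q and 485 in MSX1. The means were 3.25 ± 0.986 in K139Q, 2.38 ± 1.17 in K139R, 3.39 ± 0.515 in MSX1 and 1.19 ± 0.348 in Vector (SD, n = 3 each).

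By the ratio of means, OSGIN1 was 2.74-fold higher in K139Q than in Vector, with a log2 difference of 0.94 (SE 0.25, adjusted p = 0.0051 from limma). In MSX1 the ratio to Vector was 2.86 and the log2 difference 1.01 (SE 0.25, adjusted p = 0.0027 from limma). These log2 differences are smaller than the log2 of the ratios because 1 is added to values that are themselves near 1. The p in MSX1 is a description only, since the table was selected on that contrast. In K139R the ratio to Vector was 2.0, and the log2 difference of 0.58 (95% interval 0.04 to 1.12) was not called (adjusted p = 0.056 from limma, exact permutation p = 0.2). That K139R value passed the threshold without K139R replicate 3, at 0.84 (adjusted p = 0.009, limma), and also without Vector replicate 1, at 0.70 (adjusted p = 0.049, limma). Leaving out K139Q replicate 1 or 2, which are not in this contrast but share its fit, left the difference at 0.58 and also brought it past the threshold, with 534 and 532 genes tested. After quantile normalization OSGIN1 was called in neither K139Q nor MSX1, with log2 differences from Vector of 0.43 and 0.54 (adjusted p = 0.16 and 0.066, limma). These losses cannot be told apart from the equal distributions that the step imposes on a table of mostly higher genes.

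The RefSeq promoter table (GRCh38.p14) held entries for 2 of the 4 genes, OSGIN1 and GADD45B. The sequences of these genes are shown because they alone had an entry, and were searched for stress response and general promoter motifs. Both genes were called higher than Vector in K139Q and MSX1, as were HMOX1 and BIK. For OSGIN1 the 250 bases before the start lie at chr16:83952990-83953239 on the plus strand. Capitals mark matches on either strand to TGANNNNGC, a loose form of the antioxidant response element core with its inner bases left free.
OSGIN1: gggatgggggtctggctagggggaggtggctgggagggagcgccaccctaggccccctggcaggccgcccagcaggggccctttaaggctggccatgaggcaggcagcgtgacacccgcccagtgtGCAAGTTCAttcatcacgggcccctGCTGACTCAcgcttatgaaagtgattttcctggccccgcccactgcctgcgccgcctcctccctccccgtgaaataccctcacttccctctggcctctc
Both matches read in the minus direction, as TGAACTTGC from 124 to 116 bases and as TGAGTCAGC from 99 to 91 bases before the start. The second overlaps a match to TGANTCA, the AP-1 site. TGANNNNGC was found in 35.2% and TGANTCA in 6.57% of the 35116 promoter windows of this length. A match describes the letters only, and a match to the loose TGANNNNGC need not be an antioxidant response element.

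GADD45B (ENSG00000099860), a stress sensor of the growth arrest and DNA damage family, showed the largest differences of the 4 genes. Its expression values were 129.86, 142.13 and 97.79 in K139Q, 102.90, 84.12 and 69.74 in K139R, 89.35, 75.96 and 88.13 in MSX1, and 15.36, 17.10 and 16.34 in Vector. The Vector libraries lay close together, and the lowest library with an MSX1 plasmid, K139R replicate 3, was 4.08 times the highest of them. Most of the 533 tested genes also did not overlap with Vector, 397 in K139Q, 358 in K139R and 485 in MSX1. The means were 123 ± 22.9 in K139Q, 85.6 ± 16.6 in K139R, 84.5 ± 7.40 in MSX1 and 16.3 ± 0.872 in Vector (SD, n = 3 each).

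GADD45B rose 7.58-fold over Vector in K139Q, with a log2 difference of 2.83 (SE 0.19, adjusted p = 1.8e-07 from limma). In K139R it rose 5.26-fold, with a log2 difference of 2.31 (SE 0.19, adjusted p = 1.7e-06 from limma). In MSX1 the ratio was 5.19 and the log2 difference 2.31 (SE 0.19, adjusted p = 1.1e-06 from limma). From the highest of the 533 log2 differences, GADD45B stood 5th in K139Q, 5th in K139R and 6th in MSX1, and MSX1 itself stood first in each. The p and rank of GADD45B in MSX1 are a description only, since the table was selected on that contrast.

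For GADD45B the 250 bases before the start lie at chr19:2475877-2476126 on the plus strand. Capitals mark, from left to right, an E-box (CACGTG), a pair of CCAAT boxes and a TATA box (TATAAA).
GADD45B: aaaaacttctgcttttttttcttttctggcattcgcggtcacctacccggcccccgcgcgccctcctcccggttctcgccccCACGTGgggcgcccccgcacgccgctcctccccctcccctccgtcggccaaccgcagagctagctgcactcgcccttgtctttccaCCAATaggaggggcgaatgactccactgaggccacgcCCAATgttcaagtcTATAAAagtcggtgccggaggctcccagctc
The TATA box lies 31 to 26 bases and the CCAAT boxes 45 to 41 and 82 to 78 bases before the start, and CACGTG lies 168 to 163 bases before it. TATAAA was found in 10.7%, CCAAT in 32% and CACGTG in 6.34% of all windows, each read on both strands. GADD45B held no match to TGANNNNGC or TGANTCA. Neither gene held a match to GAANNTTC, a heat shock element of paired units, found in 5.78% of windows, or to CAATTA, a homeodomain core that MSX proteins bind, found in 6.7%.

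BIK (ENSG00000100290), the pro-apoptotic gene of the set, was higher in K139Q and MSX1 than in Vector and was not called in K139R. Its expression values were 3.25, 3.87 and 4.08 in K139Q, 2.82, 2.24 and 1.84 in K139R, 4.11, 3.77 and 4.16 in MSX1, and 1.32, 1.94 and 1.71 in Vector. The K139Q and MSX1 libraries overlapped each other and lay above every K139R and every Vector library. Against Vector, 397 of 533 tested genes in K139Q and 485 in MSX1 had groups that did not overlap. K139R replicate 3 lay below the highest Vector library. The means were 3.73 ± 0.432 in K139Q, 2.30 ± 0.493 in K139R, 4.01 ± 0.212 in MSX1 and 1.66 ± 0.313 in Vector (SD, n = 3 each).

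Against Vector, BIK was 2.25-fold higher in K139Q, with a log2 difference of 0.84 (SE 0.17, adjusted p = 0.0011 from limma). In MSX1 the ratio was 2.42 and the log2 difference 0.92 (SE 0.17, adjusted p = 0.00057 from limma). That p is a description only, since the table was selected on MSX1 against Vector. In K139R the ratio was 1.39, and the log2 difference of 0.31 (95% interval -0.06 to 0.67) was not called (adjusted p = 0.12 from limma) and turned to -0.27 after quantile normalization. Quantile normalization also left BIK uncalled in K139Q and MSX1, at 0.26 and 0.39 (adjusted p = 0.22 and 0.055, limma). In that setting the median of all tested genes also moved closer to 0, to 0.17 in K139Q and 0.31 in MSX1, against 0.69 and 0.77 without it. The step imposes equal distributions on a table of mostly higher genes, and the changes of BIK cannot be told apart from that.

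**Figure D1:**
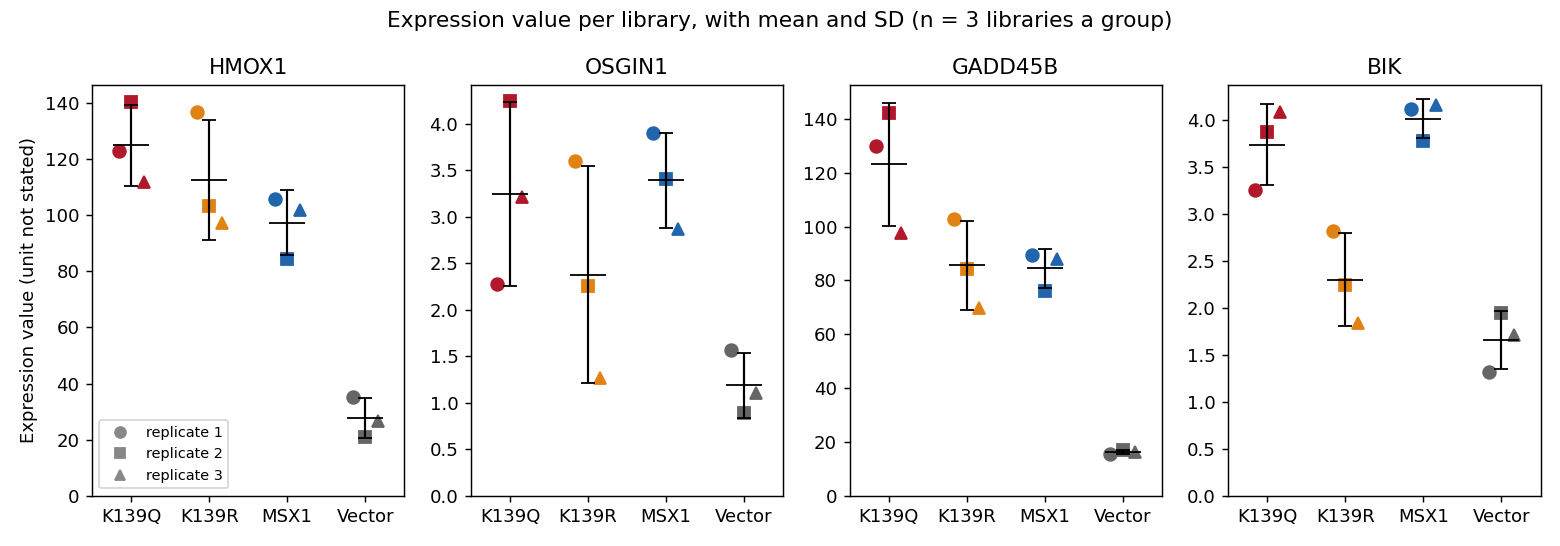
Expression value (vertical axis, unit not stated, starting at 0) of HMOX1, OSGIN1, GADD45B and BIK in each library of the K139Q, K139R, MSX1 and Vector groups. Points are libraries, with the shape giving the replicate number, and the horizontal bar and whiskers give the mean and SD of 3 libraries. HMOX1 and GADD45B stand apart from Vector with all 3 MSX1 plasmids, and the BIK values of K139R, between 1.84 and 2.82, lie below those of K139Q and MSX1.

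In all, HMOX1 and GADD45B were called higher than Vector with each of the 3 plasmids, and OSGIN1 and BIK with K139Q and MSX1 but not with K139R. The 4 of 4 genes called higher in K139Q stand beside 64.0% of all tested genes called higher and 73.4% called in either direction. The 2 of 4 called higher in K139R stand beside 60.0% called higher and 65.5% called in either direction. For MSX1 the background was 67.7% higher and 89.9% in either direction, and since the table was made from this contrast, nothing is read from the 4 of 4 called there. The 3 contrasts share the Vector libraries. With 4 genes, these counts are a description beside the backgrounds and set the genes apart from the rest in none of the contrasts. The median log2 difference over all tested genes was 0.69 in K139Q, 0.65 in K139R and 0.77 in MSX1.

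**Figure D2:**
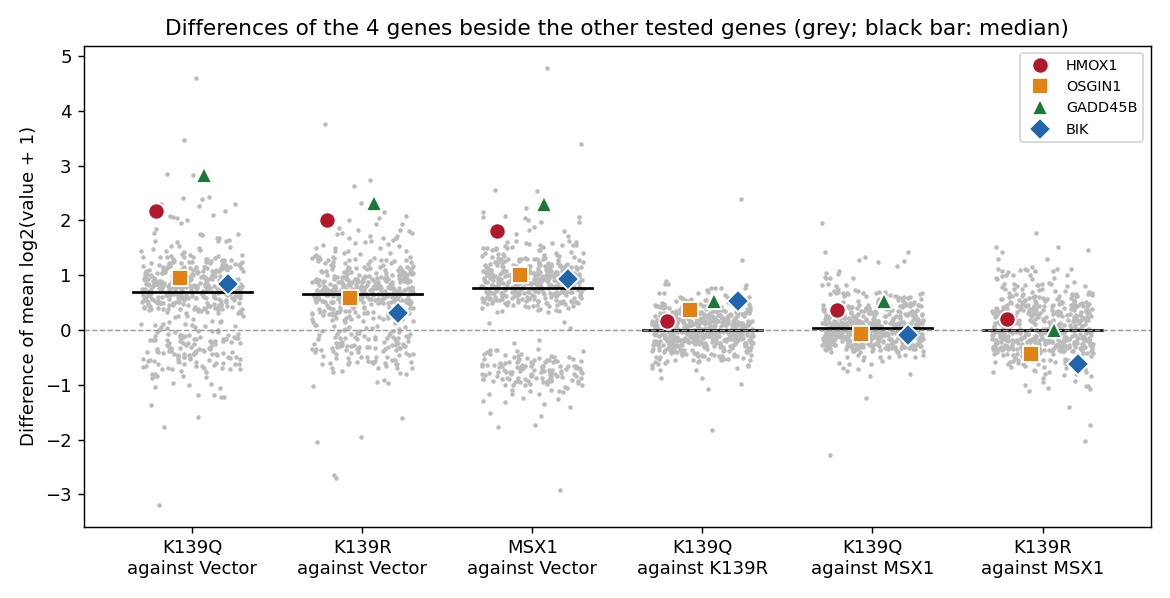
Difference of mean log2(expression value + 1) (vertical axis) for each tested gene other than MSX1 in the 6 comparisons, with grey dots for the genes, a black bar for their median and colored symbols for HMOX1, OSGIN1, GADD45B and BIK. HMOX1 and GADD45B lie near the top in all 3 comparisons against Vector, where OSGIN1 and BIK lie near the median or, for BIK in K139R, at 0.31, below it.

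Comparison of the mutants with MSX1 and with each other asks whether the state of the lysine altered these responses. Both contrasts with MSX1 share its libraries with the choice of genes for the table. In K139R against MSX1, 4.32% of the tested genes were called (23 genes, and 6 with the replicate block). In K139Q against MSX1 it was 0.938%, and in K139Q against K139R it was 0.188%. None of the 4 genes was called in any of these comparisons by limma, although 137, 70 and 49 of all tested genes had an unadjusted p below 0.05 in them. A joint F test over the 3 plasmids called 2.44% of the genes. It called none of the 4, with adjusted p of 0.51 for HMOX1, 0.46 for OSGIN1, 0.16 for GADD45B and 0.099 for BIK (limma).

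BIK came closest to the threshold, in K139R against MSX1. The table was selected on MSX1 against Vector, and this contrast shares the MSX1 libraries with that choice. A lower value in K139R than in MSX1 cannot be told apart from an effect of that choice. In K139R it had 2.82, 2.24 and 1.84, against 4.11, 3.77 and 4.16 in MSX1, so that the 2 groups did not overlap. The ratio of means was 0.573 and the log2 difference -0.61 (95% interval -0.98 to -0.25, SE 0.17), with an unadjusted p of 0.003 and an adjusted p of 0.054 (limma). It stood 29th of 533 genes by p in this comparison, in which 141 of all tested genes had groups that did not overlap. The call was made without K139R replicate 1, where the difference was -0.72 (adjusted p = 0.012, limma). It was also made with no filter on low values (adjusted p = 0.047), after quantile normalization (adjusted p = 0.047), after removal of a trend with GC content (adjusted p = 0.049) and on the scaled values as deposited (adjusted p = 0.035, limma). With the replicate block the adjusted p was 0.089 (limma).

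The contrast of K139Q with K139R shares no library with the choice of genes. In it, BIK had 3.25, 3.87 and 4.08 in K139Q, against 2.82, 2.24 and 1.84 in K139R. The groups did not overlap, as for 46 of the 533 genes, and the log2 difference was 0.53 (95% interval 0.16 to 0.89). It stood 7th by p among all tested genes but was not called (adjusted p = 0.43 from limma). Between K139Q and MSX1 the difference of BIK was -0.09 (95% interval -0.45 to 0.28, adjusted p = 0.86 from limma).

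GADD45B was higher by the mean in K139Q than in both other plasmid groups. Against MSX1 the K139Q libraries did not overlap, with a lowest value of 97.79 in K139Q and a highest of 89.35 in MSX1, as for 109 of all tested genes. The ratio of means was 1.46 and the log2 difference 0.53 (95% interval 0.12 to 0.94), which was not called (adjusted p = 0.23 from limma). The MSX1 transcript itself stood the same way in these 2 groups, with no K139Q library as low as the highest MSX1 library and a log2 difference of 0.72 (95% interval 0.09 to 1.35), and its part in the GADD45B difference was not tested. Against K139R the log2 difference in K139Q was 0.52 (95% interval 0.11 to 0.93, adjusted p = 0.43 from limma), and K139Q replicate 3 lay below K139R replicate 1. Between K139R and MSX1 the GADD45B difference was 0.00 (95% interval -0.41 to 0.42, adjusted p = 0.99 from limma), and its sign changed when MSX1 replicate 2 or K139R replicate 1 was left out.

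HMOX1 was called in none of the comparisons between plasmids. The log2 difference was 0.36 in K139Q against MSX1 (95% interval -0.09 to 0.81, adjusted p = 0.52 from limma), where the libraries did not overlap, as for 109 of all tested genes. It was 0.20 in K139R against MSX1 (95% interval -0.25 to 0.65, adjusted p = 0.55) and 0.16 in K139Q against K139R (95% interval -0.29 to 0.61, adjusted p = 0.76, limma), both with overlapping libraries. These intervals leave room for a difference of more than 0.5 on the log2 scale in either mutant.

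OSGIN1 was spread widely within both mutant groups. Its difference was -0.43 in K139R against MSX1 (95% interval -0.97 to 0.11, adjusted p = 0.29), and without K139R replicate 1 it was -0.68 and was called (adjusted p = 0.047, limma). In K139Q against K139R it was 0.36 (95% interval -0.18 to 0.90, adjusted p = 0.61 from limma). In K139Q against MSX1 it was -0.07 (95% interval -0.61 to 0.47, adjusted p = 0.92 from limma), a value whose sign changed without MSX1 replicate 1, without K139Q replicate 1 and after removal of the GC trend.

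**Figure D3:**
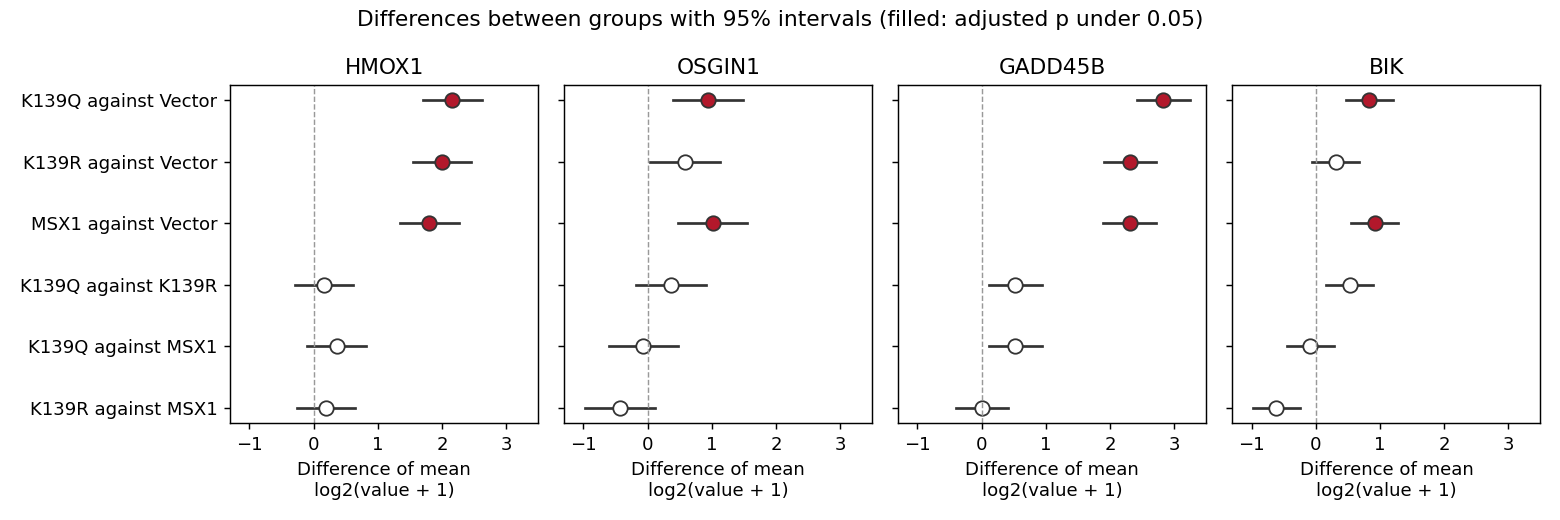
Difference of mean log2(expression value + 1) (horizontal axis) with its 95% interval from limma for HMOX1, OSGIN1, GADD45B and BIK in 6 comparisons, filled where the adjusted p was below 0.05. The filled points are those of HMOX1 and GADD45B in all 3 comparisons against Vector and of OSGIN1 and BIK in K139Q and MSX1 against Vector, and BIK in K139R against MSX1 stands at -0.61 with an interval that ends at -0.25.

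The libraries with a plasmid differed in how much MSX1 transcript they held, so each gene was set against MSX1 over those 9 libraries on the log2(expression value + 1) scale. HMOX1 followed MSX1 closely. Pearson's r was 0.98 and Spearman's rho 0.95 (exact permutation tests over all pairings, p = 2.48e-05 and 0.000353, and 0.000248 and 0.00176 after adjustment over 10 pairs). Without K139Q replicate 2 and K139R replicate 1, the libraries farthest from the median of MSX1, r was 0.96, and with the group means removed it was 0.97. Among 532 genes HMOX1 had the highest r with MSX1, beside a median of 0.28.

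GADD45B also moved with MSX1, with r = 0.80 and rho = 0.90 (exact permutation tests, adjusted p = 0.0303 and 0.00676). Its r was 0.80 without those 2 libraries and 0.88 with the group means removed, and it ranked 28th of 532 genes. The adjusted p of this r went above 0.05 when MSX1 replicate 1 or 2, K139R replicate 2 or 3, or K139Q replicate 2 or 3 was left out, with values of r from 0.68 without K139Q replicate 2 to 0.80.

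OSGIN1 and BIK showed no such order over the 9 libraries. For OSGIN1, r with MSX1 was 0.42 and rho 0.35 (exact permutation tests, adjusted p = 0.411 and 0.512), and for BIK r was 0.08 and rho 0 (exact permutation tests, adjusted p = 0.854 and 1). Without the 2 libraries farthest from the median of MSX1, r was -0.04 for OSGIN1 and 0.10 for BIK. With the group means removed, r was 0.79 for OSGIN1 and 0.75 for BIK, so that the deviations of both genes from their group means went with those of MSX1. No background over all genes was computed for an r of this kind. The mean of all tested genes itself correlated with MSX1 at r = 0.90 over the 9 libraries, so this r is not read as particular to these genes. K139R replicate 1 had 13561 of MSX1 and a BIK value of 2.82, against 4672 of MSX1 and a BIK value of 3.77 in MSX1 replicate 2. These are 2 libraries picked from the 9, and the part of the MSX1 level in the BIK values was not tested.

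Among the 4 genes, HMOX1 and GADD45B moved together over the 9 libraries (r = 0.86, rho = 0.95, exact permutation tests, adjusted p = 0.0186 and 0.00176), and r was 0.85 without K139Q replicate 2 and K139R replicate 1. The adjusted p of this r was 0.081 when K139Q replicate 2 alone was left out. OSGIN1 and BIK gave r = 0.79 and rho = 0.53 (exact permutation tests, adjusted p = 0.0303 and 0.27). This relation rested on K139R replicates 2 and 3, since r was 0.19 without them, although with the group means removed it was 0.85. The other 4 pairs had r from 0.09 to 0.47, with adjusted p of 0.4 or more (exact permutation tests), and with the group means removed their r lay between 0.45 and 0.70. For HMOX1 and GADD45B it was then 0.91.

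The mean log2 value of all tested genes also differed between these libraries. It correlated with MSX1 at r = 0.90, with HMOX1 at 0.88, with GADD45B at 0.74, with OSGIN1 at 0.37 and with BIK at 0.01 over the 9 libraries. After each library was centered on that mean, r with MSX1 was 0.94 for HMOX1 (exact permutation test, adjusted p = 0.0016) and 0.68 for GADD45B (exact permutation test, adjusted p = 0.11). Quantile normalization assigns MSX1 the same value in each of the 9 libraries, so no r with MSX1 could be computed after it. It also left HMOX1 and GADD45B on a few tied values, so their r after it cannot be read. The K139R libraries also differed along GC content, with a slope of the deviation from the group mean of 0.32 per 10 GC points in replicate 1, -0.08 in replicate 2 and -0.24 in replicate 3, and the part of this trend in the values of K139R was not tested beyond its removal.

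**Figure D4:**
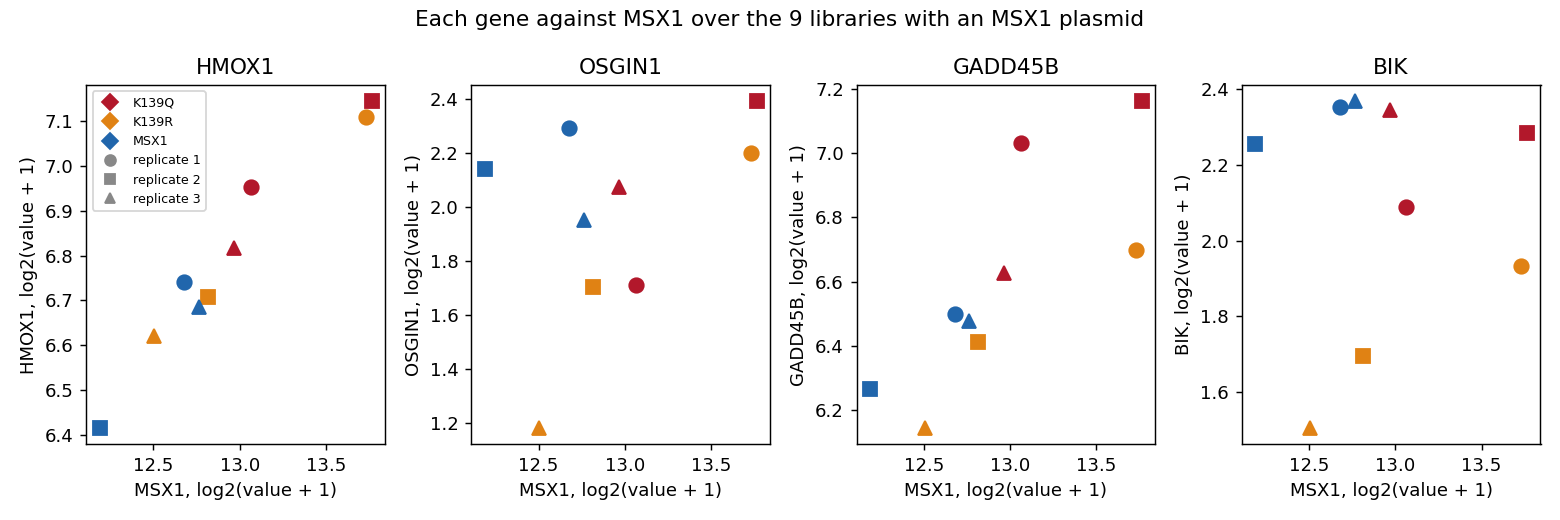
Level of HMOX1, OSGIN1, GADD45B and BIK (vertical axes) against the level of MSX1 (horizontal axes), both as log2(expression value + 1), in the 9 libraries of the K139Q, K139R and MSX1 groups, with color for the group and shape for the replicate. HMOX1 follows MSX1 across all 3 groups (r = 0.98), whereas the BIK points of K139R lie below those of the other groups at any level of MSX1 (r = 0.08 over the 9 libraries).

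The table was searched for other genes of the same processes, from lists chosen with earlier results of these data known. Of 42 NRF2 targets and regulators, the table held only HMOX1 and OSGIN1, and of 33 antioxidant enzymes it held none. The median log2 difference from Vector of HMOX1 and OSGIN1 was 1.55 in K139Q, 1.29 in K139R and 1.41 in MSX1. A gene that is not in the table was not analyzed here, so its level is not known.

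Of 25 genes of heme and iron handling, 2 were in the table. HP, haptoglobin, which binds free hemoglobin, was lower in MSX1 than in Vector, with means of 0.457 in MSX1 and 1.40 in Vector (log2 difference -0.73, adjusted p = 0.0082 from limma), and was called in neither mutant. The table was selected on MSX1 against Vector, so that p is a description only. FLVCR2, a membrane transporter related to the heme exporter FLVCR1, was called higher in K139Q than in Vector, with means of 5.53 and 0.720. The log2 difference was 1.34, with a wide SE of 0.55 beside 0.22 for HP (adjusted p = 0.041 from limma). FLVCR2 was called in neither K139R nor MSX1 against Vector. K139Q was not called against MSX1 or K139R for it either (adjusted p = 0.52 and 0.62, limma).

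Of 37 genes of the GADD45 family, growth arrest and p53 targets, the table held GADD45B, CDKN1C and GDF15, and all 3 were called higher than Vector with each plasmid. Of all tested genes, 64.0% in K139Q, 60.0% in K139R and 67.7% in MSX1 were called higher. The table was selected on MSX1 against Vector, so the MSX1 count is not read. CDKN1C, the cyclin-dependent kinase inhibitor p57, averaged 13.1 in K139Q, 9.63 in K139R, 14.0 in MSX1 and 5.44 in Vector. GDF15, a secreted stress-induced cytokine, averaged 33.0 in K139Q, 23.6 in K139R, 32.9 in MSX1 and 8.57 in Vector. Their log2 differences from Vector were 1.10 and 1.85 in K139Q, 0.72 and 1.28 in K139R, and 1.23 and 1.86 in MSX1. None of the 3 was called between K139R and MSX1, where the log2 differences were 0.00 for GADD45B, -0.50 for CDKN1C and -0.58 for GDF15 (adjusted p = 0.99, 0.19 and 0.27, limma).

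Of 23 genes of the BCL2 family, BIK alone was in the table, and of 42 caspases, death receptors and other genes of cell death there was none. Of 31 genes of the unfolded protein and ATF4 response, only CREB3L1, a membrane-bound transcription factor of the endoplasmic reticulum, was listed. It averaged 2.55 in K139Q, 2.76 in K139R, 3.36 in MSX1 and 1.31 in Vector, and was called higher than Vector in each (log2 differences 0.61, 0.68 and 0.91).

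Targets of heat shock factor were the best represented, with 8 of 21 in the table, and all 8 were called higher than Vector with each plasmid, beside 64.0% of all tested genes in K139Q, 60.0% in K139R and 67.7% in MSX1. Nothing is read from the MSX1 count, since the table was selected on that contrast. Their median log2 difference was 2.21 in K139Q, 1.76 in K139R and 2.35 in MSX1, beside 0.69, 0.65 and 0.77 over all tested genes. HSPA1A, an inducible HSP70, averaged 42.8 in K139Q, 24.6 in K139R, 46.5 in MSX1 and 0.743 in Vector. HSPA6, its close relative, averaged 795 in K139Q, 457 in K139R, 734 in MSX1 and 69.0 in Vector. Both belong to a family of near-identical copies, among which reads may be split. CRYAB, a small heat shock protein, averaged 6.36 in K139Q, 4.04 in K139R, 8.68 in MSX1 and 0.670 in Vector, and was the one of the 8 called between K139R and MSX1 (log2 difference -0.95, adjusted p = 0.028 from limma). By the means, 6 of the 8 were lower in K139R than in MSX1. The exceptions, named after their values were seen, were HSPB8 (42.9 in K139R and 25.6 in MSX1, log2 difference 0.70, adjusted p = 0.061) and HSP90AA1 (1598 in K139R and 1150 in MSX1, log2 difference 0.43, adjusted p = 0.22, limma).

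Markers of other cell types were also in the table. Of 17 epithelial markers, EPCAM and KRT17 were called higher than Vector with each plasmid, with means of 3.28 and 3.29 in K139Q, 3.80 and 2.70 in K139R, 3.71 and 3.48 in MSX1, and 1.44 and 1.03 in Vector. Of 18 neuronal markers, 5 were listed and 4 tested, and these 4 were called higher with each plasmid. Among them, TUBB3 averaged 60.1 in K139Q, 43.1 in K139R, 49.2 in MSX1 and 11.8 in Vector. CD68, of 12 hematopoietic markers, averaged 2.46 in K139Q, 2.24 in K139R, 2.34 in MSX1 and 0.473 in Vector. Of 10 skeletal muscle markers, TNNT1 was tested and was called higher in K139Q and MSX1, and of 10 endothelial markers none was listed. These calls stand beside 64.0% of all tested genes called higher in K139Q, 60.0% in K139R and 67.7% in MSX1. Those in MSX1 are not read, since the table was selected on that contrast. The part of these markers in the values of HMOX1, OSGIN1, GADD45B and BIK was not tested.

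Genes with the most similar pattern were found by Pearson's r over the 12 libraries, as a description in which the distance from Vector dominates and all points share their libraries. These genes were picked for that r, so an order of groups shared with a gene of the set follows in part from the choice. For HMOX1 they were NPTX2, MCAM and WNT9A (r = 0.97 each), and over the 9 plasmid libraries their r was 0.82, 0.62 and 0.95, beside a median of 0.28 over all tested genes. WNT9A, a secreted WNT ligand, averaged 2.72 in K139Q, 2.45 in K139R, 2.02 in MSX1 and 0.863 in Vector, the same order of groups as HMOX1.

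For OSGIN1 the closest were HSPB1, FSCN1 and PALM3, with r of 0.96, 0.96 and 0.95 over 12 libraries and 0.95, 0.92 and 0.88 over the 9. HSPB1, the small heat shock protein HSP27, averaged 993 in K139Q, 565 in K139R, 995 in MSX1 and 169.8 in Vector, with K139R between the other plasmids and Vector, as OSGIN1 had it. That order is partly built in, since HSPB1 was picked for its r with OSGIN1. The median r with OSGIN1 was 0.65 over the 12 and 0.26 over the 9 libraries.

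For GADD45B the closest were DNAJB1, an HSP40 cochaperone (r = 0.99), SERPINH1, the collagen chaperone HSP47 (r = 0.98), and WNT9A (r = 0.98), with r of 0.84, 0.79 and 0.83 over the 9 libraries. DNAJB1 averaged 757 in K139Q, 620 in K139R, 646 in MSX1 and 191.6 in Vector.

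For BIK the closest were ISYNA1, PHLDA2 and KREMEN2 (r = 0.93 each), with r of 0.87, 0.89 and 0.89 over the 9 libraries, beside a median of 0.14. ISYNA1, the enzyme of inositol synthesis, averaged 282 in K139Q, 223 in K139R, 312 in MSX1 and 143.7 in Vector. PHLDA2, an imprinted growth regulator, averaged 34.0 in K139Q, 22.0 in K139R, 37.2 in MSX1 and 9.86 in Vector. KREMEN2, a receptor for DKK proteins, averaged 3.34 in K139Q, 2.47 in K139R, 4.49 in MSX1 and 1.64 in Vector. All 3 had the order of groups seen for BIK, with MSX1 highest, K139Q next and K139R closest to Vector, which is partly built in by their choice for r with BIK.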

How the data were processed

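Libraries of poly(A)-selected RNA were sequenced from 12 samples, 3 per group, and the submitters' processing notes name RSEM, while featureCounts is given in the paper's methods. The genome build is not given in the sources used here. The deposited values are a score per gene and library, made by the authors by taking ln(expression value + 1) and then, per gene, subtracting the mean of the 12 libraries and dividing by their SD. The authors' table holds only genes selected for MSX1 against Vector, so the adjusted p covers these genes. Each column of the table matched a sample.

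Expression values in steps of 0.01 were recovered from each scaled row for 665 of 666 genes, with RN7SL1 left out. The search, tested on simulated data, returned 49 of 50 rows exactly. The paper's methods give a target depth but not the reads obtained, so no counting interval could be given, and a low value is less precise than its SD shows. Genes whose mean reached 1 in any group were tested on log2(value + 1) with limma 3.58.1 (R 4.3.3), with all 12 libraries in 1 fit, 2-sided, with Benjamini-Hochberg adjustment over 533 genes. Intervals are at 95%. Relations were tested in Python 3.11.15 by enumerating 362880 pairings of 9 libraries. Named genes were the 4 genes of the set, MSX1, the 3 symbols most like each of them, and the genes of each list (4 at most, by size in MSX1 against Vector).

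The titles give each library a replicate number, which could pair libraries across groups. The main tests did not pair libraries by it. Over 18 pairs of libraries with the same number, deviations from the group means correlated between -0.48 and 0.18, and 3 pairs exceeded 0.1. In the MSX1 group the numbers of titles and library names disagree for 2 libraries, and both were tried as a replicate block. The paper's methods call the 3 samples of each group biological replicates, without saying how they were made. No label says that the libraries came from separate cultures, so p-values measure the spread between these libraries, which may be technical. Other pseudocounts, filters, normalizations, fits and the omission of each library were tried. The 4 genes and the lists were chosen with earlier results of these data known.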

Additional observations from a re-analysis of the deposited data

How the results depend on the processing

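The depth obtained is unknown, and the table holds only genes picked for MSX1 against Vector, so these values say nothing of other genes. HMOX1 and GADD45B stayed higher than Vector and past the threshold in all 3 plasmid groups under every alternative run. Over the 24 differences of the 4 genes, 239 of the values under another setting and 278 of those with 1 library left out kept their direction and their side of the threshold. Under another setting, 3 values changed sign, 6 became called and 4 lost the call. With 1 library left out, 4 changed sign and 6 became called. A difference cannot change direction when the library left out is in neither of its groups, or under a setting that alters only the spread. A filter that asks for a group mean of 5 leaves no value for OSGIN1 and BIK.

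Quantile normalization moved the median log2 difference of all tested genes from Vector to 0.17 in K139Q, 0.13 in K139R and 0.31 in MSX1, against 0.69, 0.65 and 0.77 without it. It assumes equal distributions, which a table selected on MSX1 against Vector does not offer, so calls lost under it are not read. OSGIN1 was then at 0.43 in K139Q and 0.54 in MSX1 against Vector and BIK at 0.26 and 0.39, all 4 no longer called, and BIK turned to -0.27 in K139R. HMOX1 turned to -0.031 in K139Q against K139R, where the libraries of both groups share tied values. BIK in K139R against MSX1 was called after quantile normalization at -0.66, with no filter at -0.61 and without the GC trend at -0.59. On the scaled values, where a difference is in SD units of the gene and not on the log2 scale, BIK was called at -1.53. OSGIN1 in K139R against Vector was called with a pseudocount of 0.1 at 0.86 and on the scaled values at 1.19 SD units. In K139Q against MSX1 OSGIN1 turned to 0.039 without the GC trend.

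The genes called in MSX1 against Vector numbered 157 with a group mean of 5 asked for. In K139R against Vector they numbered 128 with that filter and 183 after quantile normalization, and in K139Q against Vector 138 and 231. In K139R against MSX1 they were 8 and 9 with pseudocounts of 0.1 and 5, 7 with a group mean of 5, 0 with only these groups in the fit (137 genes had an unadjusted p below 0.05 in the fit of all groups) and 55 on the scaled values. In K139Q against MSX1 they were 3 with a pseudocount of 0.1, 8 with only these groups and 3 on the scaled values. The gene called in K139Q against K139R gave way to 0 with a pseudocount of 5, a group mean of 5, quantile normalization or only these groups in the fit.

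With a replicate block by title number, 3 genes were called for K139Q and 6 for K139R against MSX1, and with a replicate block by library name 1 and 0. The replicate block by title changed no call of the 4 genes, with adjusted p of 0.058 for OSGIN1 in K139R against Vector and 0.089 for BIK in K139R against MSX1 (limma).

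With 1 library left out, the number of genes called ran from 0 (without MSX1 replicate 1 or 2, or K139R replicate 2 or 3) to 140 (without K139R replicate 1) in K139R against MSX1. It ran from 2 (without MSX1 replicate 1 or K139Q replicate 2) to 10 (without K139R replicate 1 or K139Q replicate 3) in K139Q against MSX1 and from 1 to 26 (without K139R replicate 1) in K139Q against K139R. OSGIN1 ran from 0.33 to 0.84 in K139R against Vector, from -0.68 to -0.18 in K139R against MSX1 and from -0.23 to 0.10 in K139Q against MSX1. BIK ran from -0.72 to -0.51 and GADD45B from -0.14 to 0.14 in K139R against MSX1.

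The settings for the relations over 9 libraries were chosen after seeing the data. Quantile normalization gave r of -0.38 for HMOX1 and OSGIN1, -0.049 for HMOX1 and GADD45B, -0.56 for HMOX1 and BIK, -0.050 for OSGIN1 and GADD45B, 0.78 for OSGIN1 and BIK, and -0.10 for GADD45B and BIK, none past the threshold. HMOX1 and GADD45B take a few tied values in that setting, so an r with either cannot be read. Without the GC trend r was 0.77 for MSX1 and GADD45B, -0.10 for MSX1 and BIK, -0.15 for HMOX1 and BIK, and 0.61 for OSGIN1 and BIK, and after centering of each library 0.68, -0.15, -0.081 and 0.77, with 0.78 for HMOX1 and GADD45B. With 1 library left out, r ran from 0.97 to 0.99 for MSX1 and HMOX1, 0.68 to 0.89 for MSX1 and GADD45B, -0.20 to 0.23 for MSX1 and BIK, -0.16 to 0.27 for HMOX1 and BIK, 0.79 to 0.92 for HMOX1 and GADD45B and 0.54 to 0.87 for OSGIN1 and BIK. The causes of these changes were not tested.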
